A study of Mus musculus with 4 samples.

Results

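Cluster 9 is a set of cells from a mouse cardiac differentiation that carried Hand1, Igfbp7, Tagln, Vim, Bambi and Acta2 among its marker genes. Its members here are all genes that the authors' deposited table of cluster markers lists for cluster number 9. There are 163 such genes among the 1197 genes of that table, which holds 2212 entries for 15 numbered clusters. Of the 163 genes, 115 were listed at a higher level in cluster 9 than in all other cells and 48 at a lower level. These genes define the cluster, so their differences from the other cells are given as a description and no test was made of them.

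The series holds 4 single-cell libraries from a mouse embryonic stem cell line at passage 2-4, made with droplet capture (10x Genomics, V2 chemistry). All 4 carry BRG1 3XFLAG, a tagged form of the chromatin remodeller BRG1, and all went through a directed cardiac differentiation. A mesoderm stage and a cardiac stage, whose source is labelled cardiac myocyte and whose cell type is labelled ES cell derived cardiac progenitors, were each sampled without further change and with BRM KO, the loss of the related remodeller Brm (Smarca2). There was 1 library per genotype and stage, and nothing in the labels gives the number of clones or cultures behind each. No library is named in the columns of the marker table, whose own name speaks of the Brm knockout only, so it may hold cells of only some of the 4 libraries. So cluster 9 is described against the other clusters by number, and neither genotype nor stage was compared. The numbers of cells and the depth are unknown, and no value below has a replicate or a counting interval.

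Mesoderm that leaves the primitive streak spreads out as lateral plate, heart-forming and extraembryonic mesoderm, and Hand1 is a basic helix-loop-helix transcription factor known from all of these. Acta2 (smooth muscle alpha-actin) and Tagln (transgelin) are classical smooth muscle genes that are also expressed early in the embryonic heart and in myofibroblasts. BMP and TGF-beta ligands act through SMAD proteins, and both Bambi, a decoy receptor, and Smad7, an inhibitory SMAD, are known to be induced by these ligands and to dampen them.

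The 115 genes listed higher in cluster 9 were 9.61% of the genes in the authors' deposited table, and the 48 listed lower were 4.01%. From the solved sizes of the clusters, cluster 9 held 3.24% of the clustered cells and was the 10th largest of 15, while only clusters 2 and 14 had more listed genes. Among the higher genes the fold ran from 1.65 to 5.53 with a median of 1.97, against a median of 2.10 over all higher entries in the authors' deposited table. Detection of the higher genes ran from 25.4% to 96.9% inside cluster 9 (median 48.7%) and from 0.6% to 85.2% outside it (median 18.2%), by the authors' deposited table. Among the lower genes the fold ran from 1.65 to 4.49 with a median of 1.83, against 1.97 over all lower entries of the authors' deposited table. At least 2-fold differences were seen for 55 of the 115 higher genes and 12 of the 48 lower genes in the authors' deposited table. The higher genes were of 2 kinds. Of the 115, 38 were listed higher for cluster 9 alone, and the other 77 were also listed higher for at least 1 other cluster.

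**Figure D1:**
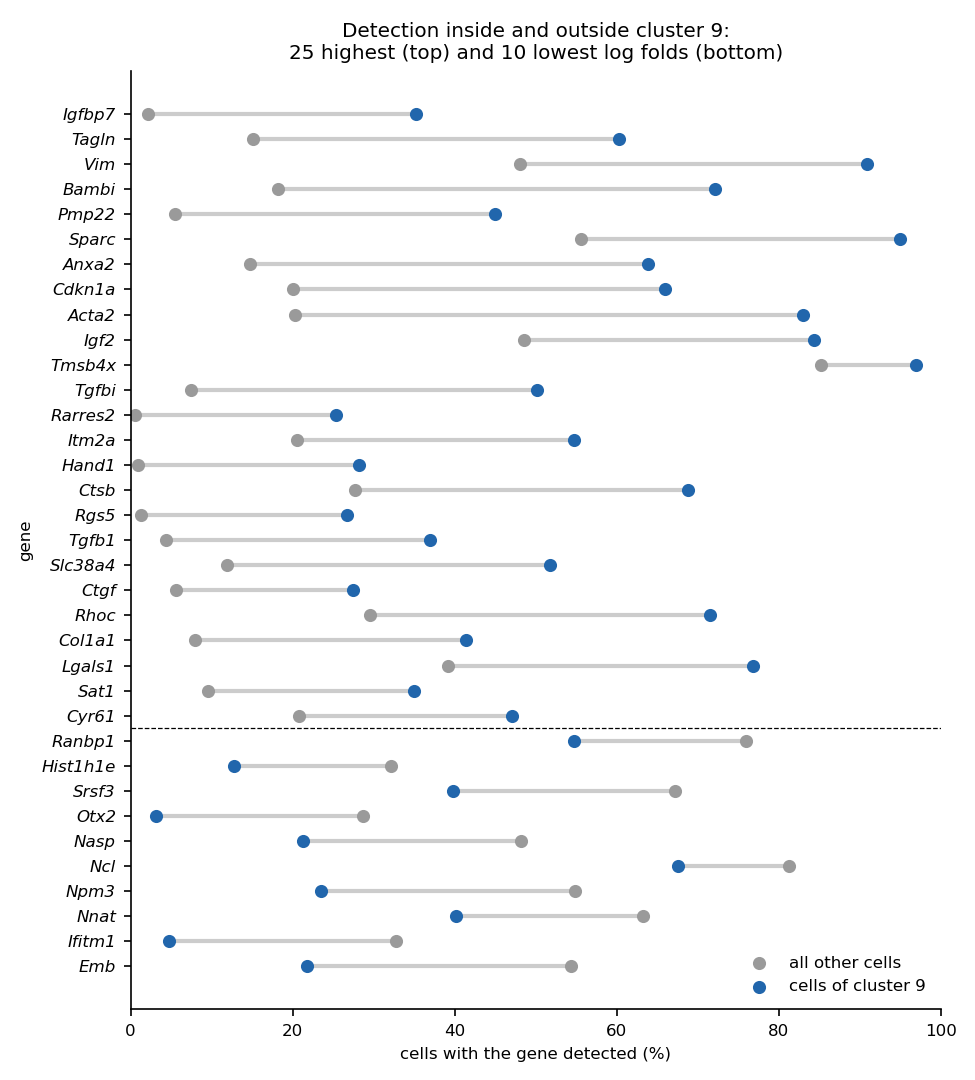
Percent of cells in which a gene was detected (x axis) inside cluster 9 (blue) and in all other cells (grey), for the 25 highest and 10 lowest log folds of cluster 9 in the authors' deposited table (genes on the y axis). Every gene shown above the dashed line is detected more often inside, from Rarres2 at 25.4% against 0.6% to Tmsb4x at 96.9% against 85.2%, and every gene below it less often, with Otx2 at 3.1% against 28.7%.

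The 6 genes that name the cluster differed in how widely else they were found. Igfbp7, a secreted IGF-binding-related protein, had the highest fold of the cluster at 5.53 and was detected in 35.2% of its cells against 2.2% of the others in the authors' deposited table. Hand1 was detected in 28.2% of the cells of cluster 9 and 0.9% of all other cells, a 2.89-fold difference in the authors' deposited table. Neither gene was listed for any other cluster. Vim, the intermediate filament protein vimentin, was detected in 90.9% against 48.0%, a 4.10-fold difference in the authors' deposited table, and was also listed higher for clusters 1, 6, 10 and 12. Tagln, Bambi and Acta2 were also listed higher for cluster 2, and for no further cluster. The 6 genes were taken from these same entries, so their listing is no check of the name, and only Hand1 and Igfbp7 among them were listed for cluster 9 alone.

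Hand1 was 1 of a small group of listed genes from a list for lateral plate and extraembryonic mesoderm. Of 34 genes on that list, 11 are in the table and 6 of them were listed higher and 0 lower, with a median fold of 2.02 in the authors' deposited table. Gata6, a zinc finger factor of mesoderm and endoderm, was detected in 25.7% against 5.1% of cells with a fold of 1.90 in the authors' deposited table. Gata6 was also listed higher for cluster 14, in 43.1% of its cells and with a fold of 2.55, by the authors' deposited table. Isl1, the LIM homeodomain factor of the second heart field, was detected in 25.8% against 6.1% with a fold of 1.80, and in 31.4% of cluster 2, by the authors' deposited table. Bmp4 was 2.16-fold higher, with 39.8% against 15.6% of cells, and was listed higher for cluster 1 as well in the authors' deposited table. The other higher members were Pmp22, listed for no other cluster, and Ahnak. Ahnak was also listed higher for cluster 14, with 33.9% of its cells against 26.8% of cluster 9, in the authors' deposited table. Gata4, Tbx3, Twist1, Twist2 and Osr1 are in the table but were not listed for cluster 9, and Hand2, Foxf1, Tbx20, Msx1 and Msx2 are not in the table for any cluster. A gene enters the table only with a natural log fold of at least 0.5 and detection in at least 25.1% of one side's cells, so absence from it is not absence from the cells. The cardiac progenitor list of 25 genes, 11 of them in the table, had the same 4 transcription factor and ligand genes higher (Isl1, Gata6, Hand1, Bmp4) and 0 lower. Only Pmp22 and Ahnak set the higher members of these lists apart, and Ahnak is also on the matrix and fibroblast list. So these counts do not tell lateral plate or extraembryonic mesoderm from cardiac progenitors. Nkx2-5, Tbx1, Mef2c, Fgf8 and Fgf10 are in the table and were not listed for cluster 9.

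For a small group of genes, cluster 9 held a large part of all the cells in which they were detected. These shares follow from the detection percents and the solved size of the cluster, and their ranges cover only the rounding of the deposited percents. Rarres2, which encodes the secreted chemoattractant chemerin, was detected in 25.4% against 0.6% of cells in the authors' deposited table. Of all cells with Rarres2, 58.7% lay in cluster 9 (56.7% to 60.8%). The same share was 51.2% for Hand1 (49.8% to 52.7%). It was 40.8% for Rgs5, a regulator of G-protein signalling known from pericytes, which was detected in 26.7% against 1.3% of cells in the authors' deposited table. It was 34.9% for Igfbp7, 22.0% for Tgfb1 and 21.5% for Pmp22, a membrane glycoprotein of the peripheral myelin protein family. No other higher gene passed 20%. A further 31 genes lay between 10% and 20%, and the median over the 115 higher genes was 8.03%, below the median of 12.0% over all higher entries of the table.

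**Figure D2:**
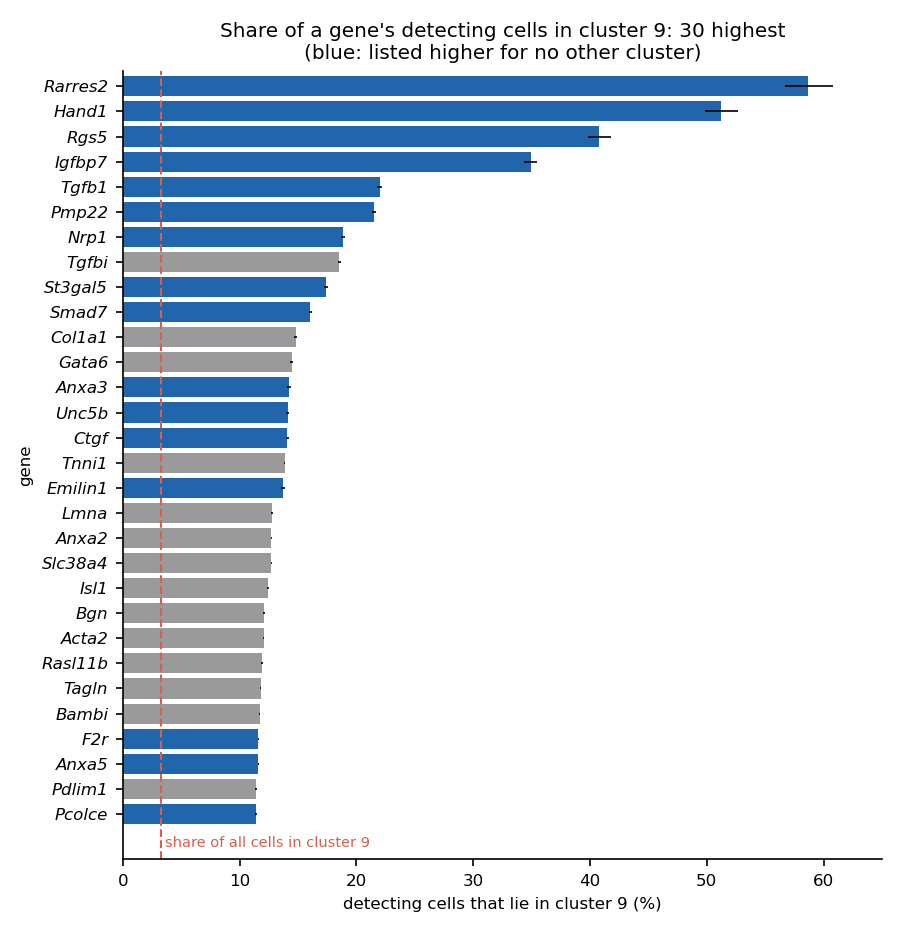
Percent of a gene's detecting cells that lie in cluster 9 (x axis) for the 30 genes with the highest share (y axis), with lines for the range left by rounding. Blue bars are genes listed higher for no other cluster, and the dashed line marks the 3.24% of all cells that cluster 9 holds. Rarres2 and Hand1 stand above 50%, Rgs5 and Igfbp7 between 30% and 50%, and the rest at or below 22.0%.

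The genes listed higher for cluster 9 alone also included the following. F2r, the thrombin receptor, was detected in 40.7% against 10.4% of cells with a fold of 2.40 in the authors' deposited table. Nrp1, a co-receptor for VEGF and semaphorins, was detected in 29.1% against 4.2% with a fold of 2.34 in the authors' deposited table. Unc5b, a netrin receptor, was detected in 33.8% against 6.9% with a fold of 2.08 in the authors' deposited table. Itgb1, the common beta subunit of matrix-binding integrins, had a smaller fold of 1.70, with 55.6% against 31.8% of cells in the authors' deposited table. Anxa5 and Anxa3, calcium-dependent membrane-binding proteins, had folds of 2.42 and 1.94 in the authors' deposited table. St3gal5, the ganglioside GM3 synthase, was detected in 28.9% against 4.6% of cells in the authors' deposited table. The small GTPases Rras and Ralb had folds of 1.71 and 1.67 in the authors' deposited table. Over the 33 genes that no other cluster lists in either direction, the median fold was 2.08, with a median detection of 35.0% inside and 9.5% outside, by the authors' deposited table. All 33 were listed higher, so each gene listed lower for cluster 9 was listed for another cluster too. Myl3 was listed lower for no other cluster, but higher for clusters 2 and 13.

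Genes of smooth muscle and the actomyosin cytoskeleton had the most listed members of the 20 lists. Of its 39 genes, 24 are in the table, and 15 of those were listed higher in cluster 9 and 0 lower. The 15 were 62.5% of the 24, beside 9.61% of all genes of the table. Their median fold was 2.41 in the authors' deposited table. The list was chosen with earlier results known and holds Tagln, Vim and Acta2, which name the cluster. So its counts and median are a description and lend the name no weight. Tagln was detected in 60.3% against 15.1% of cells with a fold of 4.18 in the authors' deposited table. Cluster 2 had it in 58.3% of its cells by the authors' deposited table, and over the clusters that do not list it 8.61% of cells had it. Acta2 was detected in 83.0% against 20.3% of cells with a fold of 3.52 in the authors' deposited table. In cluster 2 it was detected in 97.3% and in cluster 0 in 3.8% of cells by the authors' deposited table. Thus Tagln was about as frequent in clusters 9 and 2, while Acta2 was somewhat more frequent in cluster 2.

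Other members of that list bind or regulate actin. Anxa2, which links actin to membranes, was detected in 63.9% against 14.7% of cells with a fold of 3.59 in the authors' deposited table. It was also listed higher for clusters 2 (39.3% of cells), 10 (31.1%) and 14 (59.6%). Tmsb4x, the actin-monomer-binding thymosin beta 4, was detected in 96.9% against 85.2% with a fold of 3.36 in the authors' deposited table. Tmsb4x was also listed higher for cluster 12, in 98.3% of its cells and with a fold of 3.68, by the authors' deposited table. Csrp2 and Csrp1, LIM proteins of smooth muscle, had folds of 2.57 and 2.41 in the authors' deposited table. Cluster 2 lists them with larger folds of 3.74 and 4.77, in 91.5% and 74.4% of its cells. Cnn2 (calponin 2), Cald1 (caldesmon) and Myh10 (a nonmuscle myosin heavy chain) had folds of 1.90, 1.84 and 1.87 in the authors' deposited table. Tagln2, the transgelin found outside smooth muscle, was 2.46-fold higher with 72.1% against 42.2% of cells in the authors' deposited table. Unlike Tagln, Tagln2 was listed lower for cluster 2, where 14.3% of cells had it, and for 7 more clusters, and higher for clusters 3, 8 and 14 in the authors' deposited table. Cnn1, Myl9, Tpm1, Actb and Actg1 are in the table and were not listed for cluster 9. Myh11, Smtn, Lmod1, Actg2, Mylk and Tpm2 are not in the table for any cluster.

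Promoters of these genes were searched for 2 motifs of muscle gene control, the CArG box bound by serum response factor and the MCAT motif bound by TEAD factors, written GGAATG or, on the other strand, CATTCC. A CArG box was taken as 2 C, then 6 bases that are each A or T, then 2 G, which reads alike on both strands. The windows are the 250 bases before each start site in RefSeq's annotation of GRCm38.p6, and both motifs and genes were chosen with the marker lists known. The 4 windows below show Acta2 and Tagln2, which part in cluster 2, Cnn2, and the sarcomere gene Myl3 described in a later paragraph. Capitals mark the exact matches. They are chr19:34255374-34255623 on the minus strand, chr1:172499996-172500245 on the plus strand, chr10:79988350-79988599 on the plus strand and chr9:110763428-110763677 on the plus strand, each written 5′ to 3′ along the gene.
Acta2: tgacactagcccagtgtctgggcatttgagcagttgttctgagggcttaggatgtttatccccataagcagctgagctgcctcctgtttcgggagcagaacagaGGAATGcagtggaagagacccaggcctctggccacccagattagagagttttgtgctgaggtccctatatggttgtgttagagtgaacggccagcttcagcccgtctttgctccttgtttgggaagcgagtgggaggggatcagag
Tagln2: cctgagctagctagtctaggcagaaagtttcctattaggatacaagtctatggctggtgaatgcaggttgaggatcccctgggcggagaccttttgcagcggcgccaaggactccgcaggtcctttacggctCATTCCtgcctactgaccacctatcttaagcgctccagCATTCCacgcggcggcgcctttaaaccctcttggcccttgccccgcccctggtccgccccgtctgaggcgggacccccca
Cnn2: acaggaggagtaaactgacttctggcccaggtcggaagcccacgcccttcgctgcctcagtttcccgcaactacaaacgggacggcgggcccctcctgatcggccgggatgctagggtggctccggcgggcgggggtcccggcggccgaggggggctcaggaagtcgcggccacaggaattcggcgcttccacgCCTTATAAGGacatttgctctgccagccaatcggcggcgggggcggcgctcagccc
Myl3: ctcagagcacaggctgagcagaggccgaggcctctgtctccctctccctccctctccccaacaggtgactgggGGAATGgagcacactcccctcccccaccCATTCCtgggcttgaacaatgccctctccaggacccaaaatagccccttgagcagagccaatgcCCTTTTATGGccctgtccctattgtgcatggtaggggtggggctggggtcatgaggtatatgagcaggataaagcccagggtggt

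The Acta2 window held 1 MCAT match and the Tagln2 window 2, the Cnn2 window 1 CArG box, and the Myl3 window 1 CArG box and 2 MCAT matches. Of the 163 genes, 128 had a promoter in the RefSeq table. A CArG box was found in 2 of 89 higher genes (Igf2 and Cnn2, 2.25%) and 2 of 39 lower genes (Myl3 and Npm3, 5.13%), beside 3.20% of 937 genes of the whole marker table and 1.62% of all 27025 genes with a promoter. With at most 1 mismatch, the Acta2 window held 2 such boxes, and Acta2 is known to be controlled through boxes that depart from the strict form. At that setting, added after the data were seen, the shares were 15 of 89 higher genes (16.9%), 11 of 39 lower genes (28.2%), 22.6% of the genes of the marker table and 21.1% of all genes. An MCAT match was found in 26 of the 89 higher genes (29.2%) and 3 of the 39 lower genes (7.69%), beside 16.4% of the genes of the marker table and 14.4% of all genes. Some genes have several start sites, and by window the MCAT shares were 24.6% of 122 windows of higher genes, 6.82% of 44 windows of lower genes, 13.4% of 1245 windows of the marker table and 12.6% of all 32851. Of the smooth muscle list, the higher genes with an MCAT match were Acta2, Tagln2, Myh10 and Cald1. The others were Pmp22, Igf2, Cyr61, Apoe, Igfbp5, Prnp, Rcn3, Col18a1, Maged2, Tmem176a, Lgmn and Tmem176b. To these come Rasl11b, Ahnak, Efhd2, Rras, Itgb1, Ccnd3, Gabarap, Ralb, Creb3l2 and Psmd8. Tagln is among neither these nor the CArG genes, for lack of a match or of a window. Windows of 1 gene can overlap, no test was made of these shares, and a match describes the letters of a window, not a bound site.

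Few sarcomere genes were listed for cluster 9, and those that were are listed for cluster 2 too. Of 30 cardiomyocyte contractile genes 26 are in the table, and for cluster 9 only Tnni1 and Des were listed higher and only Myl3 lower, while 23 were not listed. The higher genes were 7.69% and the lower 3.85% of the 26, near the 9.61% and 4.01% of all genes of the table. So these counts show nothing particular to sarcomere genes. Tnni1, the slow skeletal troponin I that the embryonic heart uses, was detected in 71.5% against 14.9% of cells although its fold was only 1.86 in the authors' deposited table. Cluster 2 had it in 98.3% of cells and cluster 13 in 46.9% by the authors' deposited table, and over the clusters that do not list it 2.10% of cells had it. Des, the muscle intermediate filament desmin, was detected in 52.5% against 16.5% with a fold of 1.93, and in 85.8% of cluster 2, by the authors' deposited table. Myl3, a ventricular and slow muscle myosin light chain, was listed 1.85-fold lower but detected in 31.9% of the cells of cluster 9 against 13.4% of the others in the authors' deposited table. It was the only gene of the 48 lower ones detected more often inside than outside. Cluster 2, with 12.6% of all cells, had Myl3 in 94.2% of them and at 32.4-fold the level of other cells by the authors' deposited table. Actc1, Myl7, Myl4, Tnnt2, Myh6, Myh7 and Ttn are in the table and were not listed for cluster 9. Their folds against cells without cluster 2 cannot be worked out, since no fold is given for them in cluster 9.

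Because cluster 2 sits in the reference to which cluster 9 is set, the folds were worked out again against all other cells without it, for the 90 genes listed for both clusters. The direction of each shift is fixed by the gene's direction in cluster 2, so only the sizes are read here. The median fold of the 44 higher genes, of which cluster 2 also lists 41 as higher and 3 as lower, went from 1.96 to 2.55. That of the 46 lower genes, of which 45 are lower in cluster 2 too, went from 1.85 to 1.99. Acta2 went from 3.52-fold to 22.0-fold higher, with 8.72% of the remaining cells detecting it. Tnni1 went from 1.86-fold to 10.2-fold, with 2.36% of the remaining cells detecting it. Gpx3, a secreted glutathione peroxidase, went from 2.22-fold to 6.34-fold, Cdkn1a from 3.57-fold to 5.20-fold, and Bambi from 4.06-fold to 5.23-fold. Myl3 changed sides, from 1.85-fold lower to 2.92-fold higher, with 1.25% of the remaining cells detecting it. It was the only gene of the 90 to do so. So the deposited sign of Myl3 holds only with cluster 2 in the reference.

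**Figure D3:**
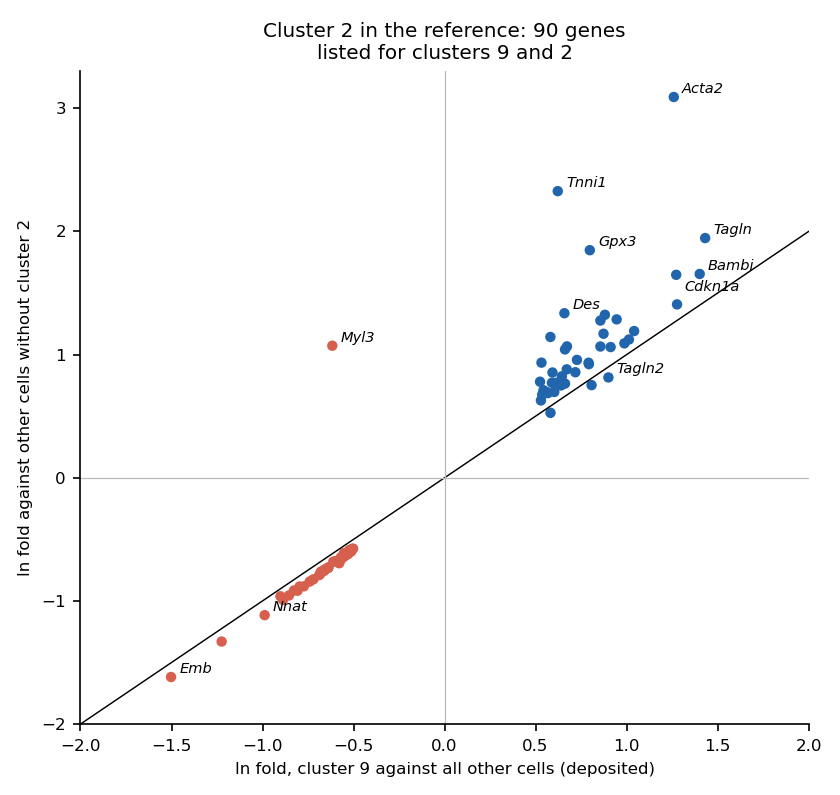
Natural log fold of cluster 9 against all other cells as deposited (x axis) and against other cells without cluster 2 (y axis), for the 90 genes listed for both clusters. Blue points were listed higher and red points lower, and the diagonal marks equal values. Acta2, Tnni1 and Gpx3 lie far above the diagonal, and Myl3 is the only point whose sign differs between the axes.

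Matrix and fibroblast genes were represented by 11 higher and 0 lower members of the 24 in the table, from a list of 42, with a median fold of 2.40 in the authors' deposited table. Sparc, a matrix glycoprotein that binds collagen, was detected in 95.0% against 55.6% of cells with a fold of 3.63, and in 99.1% of cluster 14, by the authors' deposited table. Ctgf and Cyr61, secreted matricellular proteins known as targets of YAP and TEAD, had folds of 2.69 and 2.59 in the authors' deposited table. Ctgf was listed for no other cluster, while Cyr61 was also listed higher for clusters 3 (38.1% of cells) and 14 (53.2%). Col1a1, a chain of type I collagen, was detected in 41.4% against 8.0% with a fold of 2.65, and in 59.7% of cluster 10 and 28.3% of cluster 5, by the authors' deposited table. Lgals1 (galectin 1) was detected in 76.8% against 39.2% with a fold of 2.64 in the authors' deposited table. Its folds were larger in cluster 10 (6.13, 94.9% of cells) and cluster 5 (3.43, 77.4% of cells). Fn1 (fibronectin) and Col18a1 had folds of 2.40 and 2.07 and were listed for no other cluster in the authors' deposited table. Mmp2, a matrix metalloproteinase outside the list, had a fold of 1.89 and was listed for no other cluster in the authors' deposited table. Pdgfra, Postn, Col1a2, Col3a1 and Tbx18 are in the table and were not listed for cluster 9.

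Genes of BMP and TGF-beta signalling were listed higher in 8 cases and lower in 0, of 13 in the table and 40 on the list, with a median fold of 2.32 in the authors' deposited table. The ligands came from both branches. Tgfb1 was detected in 37.0% of the cells of cluster 9 against 4.4% of the others, a 2.79-fold difference, and was listed for no other cluster in the authors' deposited table. Tgfb2 was detected in 59.4% against 21.8% with a fold of 2.49, and was also listed for cluster 2 with 48.6%, by the authors' deposited table. Bmp4 is given above with the mesoderm genes. Of the feedback inhibitors, Bambi was detected in 72.1% against 18.2% with a fold of 4.06, and in 56.8% of cluster 2, by the authors' deposited table. Smad7 was detected in 33.6% against 5.9% with a fold of 2.08, and was listed for no other cluster in the authors' deposited table. Of the targets, Tgfbi, a matrix protein induced by TGF-beta, was detected in 50.2% against 7.4% with a fold of 3.35 in the authors' deposited table. It was shared with clusters 5 (42.1%) and 10 (31.1%) in the authors' deposited table. Id1, a helix-loop-helix inhibitor and BMP target, was 1.75-fold higher with 63.1% against 38.3% of cells in the authors' deposited table. Id2, Id3, Bmp7, Fst and Cer1 are in the table and were not listed for cluster 9. So ligand, inhibitor and target genes of this pathway were listed higher in the same cluster, and whether the same cells carried them cannot be read from a table of clusters.

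The insulin-like growth factor axis had 5 higher and 0 lower members of 9 in the table and 20 on the list, with a median fold of 2.39 in the authors' deposited table. The higher members were 55.6% of the 9, beside 9.61% of all genes of the table. Igf2, the fetal growth factor, was detected in 84.3% against 48.5% of cells with a fold of 3.42, and in 77.9% of cluster 0, by the authors' deposited table. Igf2r, the receptor that clears IGF2, was detected in 45.0% against 12.0% with a fold of 2.39, and in 51.3% of cluster 2, by the authors' deposited table. Of the binding proteins, Igfbp5 had a fold of 2.35 and Igfbp4 of 1.79 in the authors' deposited table. Igfbp5 was detected in 46.8% of cluster 9 and 50.9% of cluster 2, by the authors' deposited table. Igfbp4 was detected in 54.9% of cluster 9, 73.5% of cluster 10 and 57.3% of cluster 5, by the authors' deposited table. H19, Igfbp2 and Gpc3 are in the table and were not listed for cluster 9. Igf2 and Igf2r are also imprinted genes, of which 3 were higher and 1 lower among 13 in the table and 27 listed. Slc38a4, an amino acid transporter, was the remaining higher gene, at 51.7% against 11.9% and a fold of 2.75 in the authors' deposited table. Cluster 2 had Slc38a4 in 32.8% of its cells, by the authors' deposited table. Nnat (neuronatin) was the lower gene, at 40.2% against 63.2% and a fold of 2.69 in the authors' deposited table.

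Of the 48 genes listed lower, 45 were also listed lower for cluster 2. Emb (embigin, a membrane partner of lactate transporters) was the lowest, detected in 21.8% against 54.4% of cells with a 4.49-fold lower level in the authors' deposited table. Ifitm1, an interferon-induced membrane protein known from the streak and nascent mesoderm, was detected in 4.8% against 32.7% with a 3.40-fold lower level in the authors' deposited table. It was the only gene listed for cluster 9 among the 12 streak genes in the table, of 30 on the list. Emb was detected in 99.0% of cluster 3 and Ifitm1 in 81.0% of cluster 7, by the authors' deposited table. Otx2, a homeobox gene of the epiblast and anterior neural plate, was detected in 3.1% against 28.7% with a 2.29-fold lower level in the authors' deposited table. Otx2 was the only listed member of the 11 pluripotency genes in the table, of 24. With Nnat it was also the only listed member of the 19 neural genes in the table, of 34.

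Among the other genes with the lowest folds, Ncl (nucleolin) was detected in 67.6% against 81.3% of cells with a 2.43-fold lower level in the authors' deposited table. Npm3, a nucleoplasmin family member, was detected in 23.5% against 54.8% with a 2.46-fold lower level in the authors' deposited table. Npm1, which was picked with its values known, was 1.70-fold lower although detected in nearly all cells on both sides, 98.3% against 98.8%, in the authors' deposited table. Nasp (a histone chaperone), Hist1h1e (a linker histone), Srsf3 (a splicing factor) and Ranbp1 (a partner of the nuclear transport GTPase Ran) were lower with folds of 2.35, 2.22, 2.24 and 2.17 in the authors' deposited table. Of the 48 lower genes, 15 were listed higher for cluster 0, 13 for cluster 7 and 13 for cluster 8, which list 3.09%, 3.34% and 5.51% of the table's genes as higher.

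A few markers of the S, G2 and M phases were listed, all as lower, while an inhibitor of cyclin-dependent kinases was among the higher genes. Cdkn1a (p21), that inhibitor, was detected in 65.9% against 20.1% of cells with a fold of 3.57 in the authors' deposited table. Cluster 2 had it in 64.6% and cluster 14 in 57.8% of cells, by the authors' deposited table. Of 18 G2 and M phase genes in the table, of 35 listed, Top2a, Cenpf and Hmgb2 were lower with folds of 1.77, 1.98 and 1.94 in the authors' deposited table, and 0 were higher. The other 15, among them Mki67, Cdk1, Ccnb1 and Birc5, were not listed for cluster 9. Of 8 S phase genes in the table, of 25, Mcm6 and Dut were lower with folds of 1.70 and 1.89 in the authors' deposited table, and 0 were higher. The D-type cyclins went both ways. Ccnd1 and Ccnd2 were lower, with folds of 1.89 and 1.99, and Ccnd3 was 1.69-fold higher with 63.4% against 37.6% of cells, in the authors' deposited table. Of 9 genes in the table, of 26 on the stress and immediate early list, 4 were higher and 0 lower: Cdkn1a, Phlda3 (1.90-fold), Ccng1 (1.81-fold) and Junb (1.84-fold) in the authors' deposited table. Cdkn1a, Phlda3 and Ccng1 are known targets of the tumour suppressor Trp53, and all of them were also listed higher for clusters 2 and 14. Phlda3 was detected in 49.1% of cluster 9, 52.6% of cluster 2 and 53.2% of cluster 14, by the authors' deposited table. Ccng1 was detected in 48.0%, 63.6% and 61.5% of the same clusters, by the authors' deposited table. Mdm2, also on the list, is not in the table for any cluster. Fos, Hspb1 and Hspa5 are in the table and were not listed for cluster 9.

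Lists of markers of other cell types and states had few members listed for cluster 9. Their counts, and those of the lists above, are to be read beside the shares of all the table's genes. These shares were 9.61% listed higher in cluster 9 and 4.01% listed lower. Of 30 endothelial and blood genes 4 are in the table, and only Egfl7 was listed, at 27.9% against 12.9% and a fold of 1.74 in the authors' deposited table. Egfl7 was detected in 54.1% of cluster 14, by the authors' deposited table. Pecam1, Cdh5 and Kdr are not in the table for any cluster. Of 16 epicardial genes 3 are in the table and 0 were listed for cluster 9, and Wt1, Tcf21 and Upk3b are not in the table for any cluster. Of 19 epithelial genes 9 are in the table, and only Krt18 was listed, at 51.2% against 34.4% and a fold of 1.99 in the authors' deposited table. Krt18 was detected in 91.2% of cluster 3 and 85.3% of cluster 14, by the authors' deposited table. Krt8, Epcam and Cdh1 are in the table and were not listed for cluster 9. Of 28 genes on the endoderm list 16 are in the table, and Gata6 and Apoe were higher and Npm3 lower. Npm3, the nucleoplasmin family member named above, was listed lower for 6 other clusters too, among them cluster 14 (34.9% of its cells). So its listing is not read as a statement about endoderm. Apoe was detected in 79.1% against 55.6% with a fold of 2.48, and in 91.7% of cluster 14, by the authors' deposited table. Of 31 glycolysis and hypoxia genes 21 are in the table, with Slc2a3 and P4ha1 higher (1.72-fold and 1.75-fold) and Ldhb lower (1.78-fold) in the authors' deposited table. None of the 10 mitochondrially encoded transcripts in the table, of 15, was listed for cluster 9.

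The other rows of the same genes showed which other clusters shared them. These comparisons share most of their reference cells, so their overlaps are counts and no more. Cluster 2 listed 22.7% of the table's genes as higher and 25.7% as lower. Of the 115 higher genes of cluster 9, 41 were also higher in cluster 2, which is 35.7% of the genes of cluster 9 and 15.1% of the 272 of cluster 2. Of the 48 lower genes, 45 were also lower in cluster 2, or 93.8% of them and 14.6% of its 308. Cluster 14 listed 26.2% of the genes higher and 9.19% lower, and shared 28 higher genes (24.3% of those of cluster 9 and 8.92% of its 314) and 18 lower genes. Cluster 10 listed 6.85% higher and 4.09% lower, and shared 18 higher genes (15.7% and 22.0% of its 82) and 16 lower genes. Cluster 5 listed 4.09% higher and 4.26% lower, and shared 9 higher genes (7.83% and 18.4% of its 49) and 9 lower genes. Clusters 2, 14, 10 and 5 hold 12.6%, 0.291%, 2.93% and 8.51% of all cells.

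**Figure D4:**
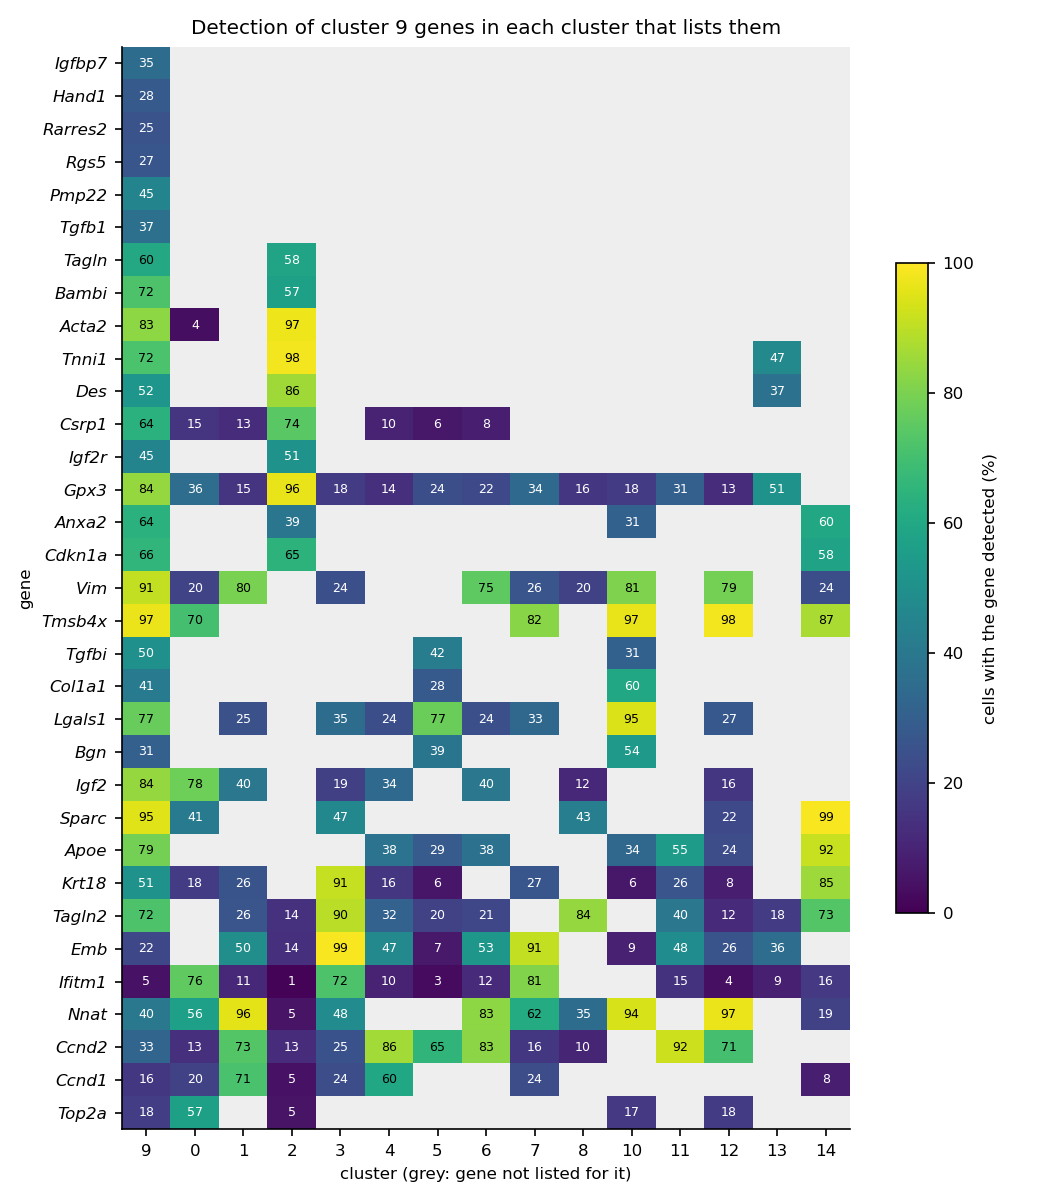
Percent of cells with a gene detected (colour and number), for 33 genes of cluster 9 (rows) in each cluster that lists them (columns). Grey means that the gene is not listed for that cluster, not that it is undetected there. Igfbp7, Hand1, Rarres2, Rgs5, Pmp22 and Tgfb1 fill only the column of cluster 9, Tagln and Bambi that of cluster 2 too, and Col1a1, Lgals1 and Bgn are highest in cluster 10.

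Where a pair of clusters lists the same gene, its levels can be set side by side, each relative to the mean of all cells. A difference of at least 0.5 on the natural log scale was counted, and a gene that only 1 of the pair lists was left out. Of 90 genes listed for clusters 9 and 2, 13 were at a higher level in cluster 9, 7 at a lower level and 70 within that bound. Among the 44 of them listed higher in cluster 9, 4 were above and 6 below their level in cluster 2. Among the 46 listed lower, 9 were above and 1 below, so most of the 13 were genes that were low in cluster 9 and lower still in cluster 2, such as Nnat (3.78-fold between the clusters). Among the genes listed higher, those above cluster 2 included Tagln2 (6.07-fold), the surface glycoprotein gene Cd24a (3.60-fold) and Igfbp4 (2.86-fold). Cluster 2 lists each of these as lower. Lower in cluster 9 were the sarcomere genes Myl3 (11.9-fold), Tnni1 (3.46-fold) and Des (2.21-fold), with Gpx3 (2.40-fold) and Acta2 (1.87-fold). Of the smooth muscle list, 9 members could be compared: Tagln, Cnn2, Csrp1, Csrp2 and Myl12a lay within the bound, Tagln2 and Anxa2 were higher and Acta2 and Des lower in cluster 9.

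Genes that a pair of clusters lists in opposite directions differ by the listing rule itself. For cluster 2 these were 3 of the 13 higher genes (Tagln2, Cd24a and Igfbp4) and 1 of the 7 lower (Myl3). All differences from cluster 5 were of this kind: of 27 genes listed for both, 8 were higher and 1 lower in cluster 9, and the 18 listed in the same direction all lay within the bound. Krt18 was 6.68-fold, Tagln2 4.86-fold, Csrp1 4.83-fold and Apoe 4.23-fold higher in cluster 9, and Ccnd2 was 3.14-fold lower. Of 39 genes listed for clusters 9 and 10, 7 were higher and 5 lower in cluster 9, of which 3 and 4 were listed in the same direction for both. Gpx3 was 7.27-fold, Krt18 6.59-fold, Anxa2 1.97-fold and Vim 1.68-fold higher in cluster 9. The matrix genes Lgals1 (2.13-fold), Bgn (1.85-fold) and Col1a1 (1.70-fold) were lower in cluster 9 than in cluster 10, with Nnat (4.75-fold) and Igfbp4 (2.01-fold). Cluster 14 was added after the values were seen, and of 50 shared genes 8 were higher and 11 lower in cluster 9, of which 4 and 11 were listed in the same direction for both. Vim was 10.5-fold, Fstl1 3.91-fold and Cald1 3.55-fold higher in cluster 9, and Sparc was 4.62-fold, Lgmn 3.54-fold and Apoe 2.72-fold lower.

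**Figure D5:**
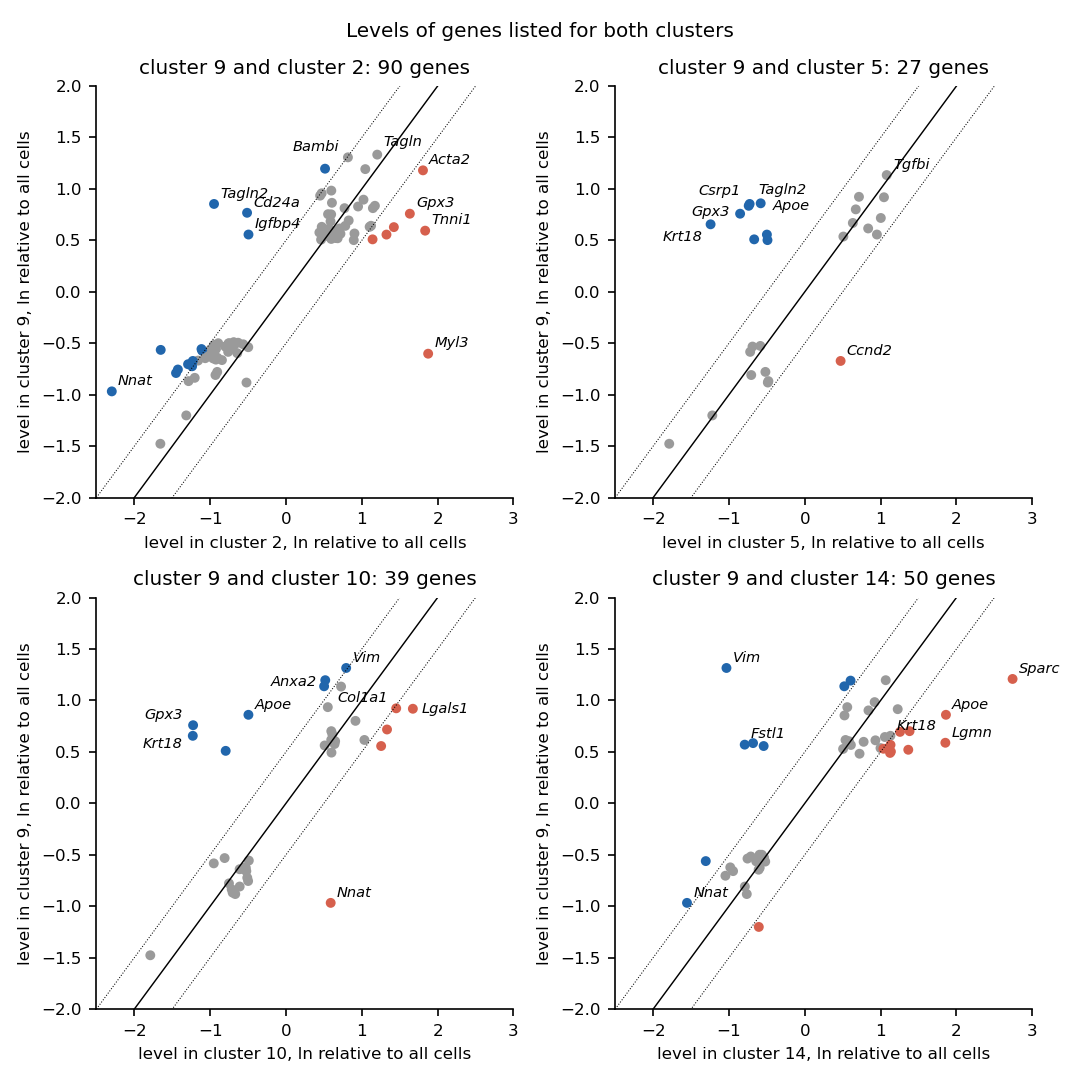
Level in cluster 9 (y axis) and in clusters 2, 5, 10 and 14 (x axes, 1 panel each), both as the natural log of the level relative to all cells, for genes listed for both clusters. The solid line marks equal levels, the dotted lines a difference of 0.5, blue points are higher and red points lower in cluster 9. Myl3 is the farthest point below the line in the panel of cluster 2, Krt18 lies above it in those of clusters 5 and 10, and Vim lies above and Sparc below it in that of cluster 14.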

How the data were processed

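Cell Ranger, Seurat and mm9 are the tools and build in the submitters' processing notes, with versions, cell filters, doublet handling and the libraries used being details not given in the sources used here. A table from the authors, as deposited, holds cluster markers and sets each numbered cluster against all other cells. The authors' deposited fold change is on the natural log scale, by its column name in Seurat's usage. That natural base held for 3 of 3 genes listed for clusters with at least 95% of cells, and bases 2 and 10 for 0. Folds are exponentials of those values, and a constant added before the log, not given in the sources used here, would understate folds of weak genes. The authors' deposited p-values compare cells, which are not replicates, and served only as a filter in 1 alternative. The deposited percents are of cells with the gene.

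Cluster sizes came from a least squares solution, since the percent of all cells with a gene must agree between clusters that list it (407 genes, sizes summing to 100.002%, residual SD 0.0228 percentage points). Levels relative to all cells and folds without cluster 2 follow from sizes and folds. The steps were tested on simulated data. Members, lists, comparator clusters and motifs were chosen with earlier results of these data known. Lists share genes: Hand1, Isl1, Gata6 and Bmp4, for example, are on more than 1. Each of the 6 marker genes is on a list too, so the counts of lists are a description only. Named were the 6 marker genes, the 15 highest and 10 lowest folds (no predicted genes), all genes higher in cluster 9 alone, and up to 6 members of each list with at least 2 listed members; any other named gene was chosen after its values were seen. Of the 163 names, 152 matched a current symbol in RefSeq's table and 162 a current or older 1. Promoters are RefSeq's, from GRCm38.p6, and were not set against mm9 coordinates. No test between groups was made, with 1 library per group. Alternatives were stricter folds, p-values and detection, other bounds on levels, other gene sets for the sizes, and other reference cells. Python 3.11.15, numpy 2.4.6, pandas 2.3.3 and matplotlib 3.10.9 were used.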

Additional observations from a re-analysis of the deposited data

How the results depend on the processing

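At a natural log fold of at least 1, 19 genes were higher, 2 lower and 11 higher for cluster 9 alone among entries past that bound, of which 7 are alone in the full table. With detection of at least 50% on 1 side the counts were 55, 21 and 19, and 13 of the last are alone in the full table. At that fold, list members listed higher numbered 2 for lateral plate mesoderm, 5 for smooth muscle, 1 for matrix, 3 for BMP and TGF-beta, 2 for the IGF axis, 1 for cardiac progenitor and 1 for stress. They numbered 0 for endothelial, contractile, epithelial, endoderm and glycolysis genes, and lower members numbered 0 for imprinted, contractile, pluripotency, endoderm, neural, S phase, G2 and M phase and glycolysis genes. With a bound of 0.25 on levels, 38 genes were higher and 14 lower in cluster 9 than in cluster 2, 6 were lower than in cluster 5, and 12 were higher than in cluster 10. With a bound of 1, 5 were higher and 2 lower than in cluster 2, and 4 higher and 1 lower than in cluster 10. For cluster 14, added after the data were seen, 13 were higher at 0.25, and 4 higher and 3 lower at 1. Without cluster 2 in the reference, Myl3 changed to a natural log fold of 1.07, and without clusters 2 and 13, an alternative also added after the data were seen, to 1.18. No other named gene that was recomputed changed sides, which shows no stability, since genes listed in the same direction for cluster 2 cannot change them. Fewer genes pass stricter bounds by their construction. The size of cluster 9 was 3.24% and 3.25% with other genes in the solution.

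No paired analysis was possible because each group has 1 library and the table names none. Cell numbers and depth are unknown, so no counting error can be given. Genes below the table's bounds of fold and detection are not described. Differences between clusters come from the genes used to form them. Whether cells of both genotypes and stages make up cluster 9 cannot be told from the table.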
